A study of Homo sapiens with 16 samples.

Results

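Zinc finger genes whose symbol is ZNF followed by a number were followed through RNA-seq of MDA-MB-231, a cell line of triple-negative breast cancer in long use. A gene was taken when its level in untreated wild-type cells was 5 FPKM or more (fragments per kilobase of exon model and per unit of sequencing). Of 478 genes with such a symbol, 92 reached that level, 386 lay below it and 53 of these were listed at 0. The genes were chosen by their WT control level, so that level is a description here, and so is every comparison that uses it.

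The study compared BMAL1 -/- cells (KO) with wild-type cells (WT) of the line, each under 3 drugs and in an untreated control. Cisplatin forms DNA crosslinks, doxorubicin inserts into DNA and traps topoisomerase II, and tunicamycin blocks N-linked glycosylation. BMAL1, encoded by ARNTL, is the partner of CLOCK in the circadian transcription loop. The 16 samples, all at passage 10-15, form 8 groups of 2 biological replicates. The labels do not say whether the knockout line is 1 clone, nor which doses and times were used. Each treatment has a deposited table with 1 FPKM for each genotype, so no spread between replicates can be shown and no drug can be tested against control. A gene is called where the q-value in the authors' deposited table for KO against WT cells was at most 0.05.

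Proteins of this family carry C2H2 zinc fingers, short loops that hold a zinc ion between a pair of cysteines and a pair of histidines and read DNA bases. Many also carry a KRAB domain, which recruits the corepressor TRIM28 and through it the histone methyltransferase SETDB1, and KRAB zinc finger genes lie in large clusters on chromosome 19. Messengers of many zinc finger factors are known to turn over quickly, and doxorubicin is known to interfere with transcription. RNA half-lives were not measured in these samples.

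The extraction protocol speaks of fibroblasts, while all other labels name the breast cancer line. VIM and CD44 stood at 2883 FPKM or more and 148.7 FPKM or more in all 8 groups, but fibroblasts express both, so they do not tell the cell types apart. The hormone receptor gene PGR was listed at 0 in all 8. The epithelial adhesion gene EPCAM had 1.29 FPKM in KO cells and 5.09 FPKM in WT cells in control and was called lower in KO cells in all 4 tables. GATA3, a luminal transcription factor gene, had 3.82 FPKM in KO cells and 0.742 FPKM in WT cells in control and was called higher with the knockout in 3 tables and not tested in doxorubicin. The 2 genotypes thus differed in such marker genes as well, and the part of this in the ZNF calls was not tested. ARNTL was at 0.889 FPKM in KO cells and 5.67 FPKM in WT cells in control, and was called lower in KO cells in control and doxorubicin but not in cisplatin or tunicamycin. Mitochondrial transcripts made up 11.1% of summed FPKM in KO cells and 16.99% in WT cells under doxorubicin, against 3.86% in KO control and 5.35% in WT control. The tables were normalized separately, so a ratio across them carries that difference in composition, whose part in the drug ratios was not tested beyond the rescaling given with them.

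The 92 genes lay on 20 chromosomes, and 29 of them (31.5%) were on chromosome 19. That chromosome held 54.9% of the 386 ZNF genes below 5 FPKM and 6.57% of the 8690 genes of any kind at 5 FPKM or more. A KRAB A-box match was found in 25 of the 92 (27.2%), against 270 of the 386 below the threshold (69.9%). The genes expressed at this level thus had a KRAB match less often than the rest of the family by count, with no test made of it. Genes with a match are called KRAB genes here, and a gene without a match can still carry the domain. The number of finger matches per protein had a median of 6.5 and reached 31 in ZNF142. ZNF185, ZNF330, ZNF503 and ZNF703 had 0 matches. ZNF185 is a LIM-domain protein of the actin cytoskeleton, and ZNF503 and ZNF703 belong to a separate family of repressors, so a ZNF symbol does not always mean a C2H2 array.

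In WT control the levels ran from 5.02 FPKM for ZNF562 to 80.3 FPKM for ZNF706, with a median of 10.2 FPKM. All genes at 5 FPKM or more had a median of 21.5 FPKM in the same group. The 5 highest were ZNF706, ZNF511, ZNF207, ZNF787 and ZNF146. ZNF207 is BuGZ, which loads the checkpoint protein BUB3 onto kinetochores, and it had 84.0 FPKM in KO cells and 63.4 FPKM in WT cells in control. Just inside the threshold in WT control stood ZNF562 at 5.02, ZNF267 at 5.05 and ZNF609 at 5.07 FPKM, and just outside stood ZNF23 at 4.98, ZNF3 at 4.96 and ZNF85 at 4.95 FPKM. In KO control 83 of the 92 reached 5 FPKM and 9 did not.

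Most of these transcripts were lower under doxorubicin than in control, and by more than the typical transcript. The median level was 1.40 FPKM in KO cells under doxorubicin, against 10.4 FPKM in KO control, and 1.33 FPKM in WT cells under doxorubicin, against 10.2 FPKM in WT control. Drug ratios are given as log2 of (FPKM + 1) over (FPKM + 1). On that scale the median ratio of doxorubicin over control was -2.29 in KO cells and -2.26 in WT cells, against -0.79 in KO cells and -0.78 in WT cells for all 8690 genes. In KO cells 77 of 92 genes (83.7%) were at least 2-fold lower under doxorubicin, where 45.2% of all genes were. In WT cells it was also 77 of 92, where 44.6% of all genes were. At least 4-fold lower were 53 genes in KO cells, beside 24.6% of all genes, and 56 in WT cells, beside 23.7% of all genes. No ZNF gene was 2-fold higher in either genotype, where 3.23% of all genes in KO cells and 2.45% in WT cells were. Only the KO comparison is free of the level that chose the genes, and a ratio over that level tends to come out low. In bulk RNA a lower level in every cell and a loss of the cells that express a gene cannot be told apart.

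**Figure D1:**
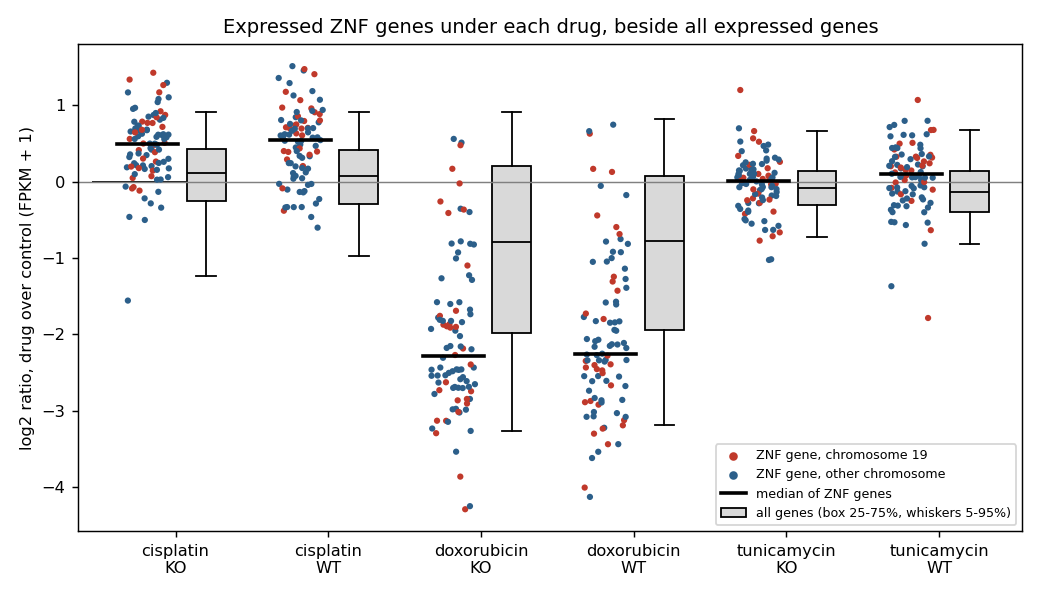
Each point is 1 of the 92 ZNF genes, plotted by its log2 ratio of drug over control on the (FPKM + 1) scale in KO and WT cells, in red for chromosome 19 and blue for other chromosomes. Black bars are medians, -2.29 in KO and -2.26 in WT cells for doxorubicin, and grey boxes show all 8690 genes of 5 FPKM or more, which sit near -0.79 and -0.78.

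The contrast with other genes was seen in both ranges of level given here. Among genes of 5 to 10 FPKM in WT control, the median doxorubicin ratio was -2.16 in KO cells and -2.15 in WT cells for 45 ZNF genes, against -1.26 in KO cells and -1.25 in WT cells for all genes in that range. Among the 17 ZNF genes of 20 FPKM or more it was -2.46 in KO cells and -2.55 in WT cells, against -0.32 in KO cells and -0.41 in WT cells for all genes. Highly expressed genes in general had the ratios nearest to 0, while highly expressed ZNF genes did not. With no pseudocount the median of the 92 was -3.18 in KO cells and -3.05 in WT cells, since the added 1 shrinks the ratio of low values.

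Rescaling the tables shifted the ratios of all genes and of the ZNF genes alike. With each group scaled to the same median, the ratio of all genes was 0.21 in KO cells and 0.19 in WT cells, while that of the ZNF genes was -1.57 in KO cells and -1.65 in WT cells. With that scaling 63 ZNF genes (68.5%) in KO cells and 62 (67.4%) in WT cells were at least 2-fold lower, beside 27.6% of all genes in KO cells and 26.8% in WT cells. With equal summed FPKM the ratio of all genes was -1.17 in KO cells and -1.01 in WT cells, and that of the ZNF genes -2.52 in KO cells and -2.33 in WT cells. The ZNF genes stayed below the median gene under each of the 3 scalings.

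The lowest ratio in KO cells belonged to ZNF146, a small protein made almost entirely of zinc fingers. It had 1.12 FPKM in KO cells under doxorubicin, against 40.3 FPKM in KO control, and 2.07 FPKM in WT cells under doxorubicin, against 48.3 FPKM in WT control. The log2 ratio was -4.29 in KO cells and -4.00 in WT cells. Its level under cisplatin was 59.7 FPKM in KO cells and 55.7 FPKM in WT cells, and under tunicamycin it was 39.5 FPKM in KO cells and 40.3 FPKM in WT cells. Only the doxorubicin groups were low.

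ZNF639 came next, with 0.559 FPKM in KO cells under doxorubicin, against 28.6 FPKM in KO control, and 0.827 FPKM in WT cells under doxorubicin, against 30.9 FPKM in WT control. Its log2 ratio was -4.25 in KO cells and -4.12 in WT cells. ZNF281, a factor of epithelial-mesenchymal transition and stem cell programmes, had 0.164 FPKM in KO cells under doxorubicin, against 10.2 FPKM in KO control, and 0.139 FPKM in WT cells under doxorubicin, against 8.57 FPKM in WT control. Both genotypes thus held little of either messenger under the drug. The KRAB gene ZNF584 had 0.601 FPKM in KO cells under doxorubicin, against 14.7 FPKM in KO control, and 0.410 FPKM in WT cells under doxorubicin, against 12.9 FPKM in WT control. ZNF706, on chromosome 8, had 7.86 FPKM in KO cells under doxorubicin, against 102 FPKM in KO control, and its ratio was -3.53 in KO cells and -2.61 in WT cells.

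At the other end 4 genes had positive ratios in both genotypes. ZNF219, a partner of SOX9 in cartilage, had 11.99 FPKM in KO cells under doxorubicin, against 7.82 FPKM in KO control, and 11.7 FPKM in WT cells under doxorubicin, against 7.07 FPKM in WT control. The LIM protein gene ZNF185 had 42.5 FPKM in KO cells under doxorubicin, against 29.6 FPKM in KO control, and 70.7 FPKM in WT cells under doxorubicin, against 41.8 FPKM in WT control. ZNF428 had 45.6 FPKM in KO cells under doxorubicin, against 32.5 FPKM in KO control. These 3 stayed above 0 under each of the 3 scalings, whereas ZNF580, at 0.17 in both genotypes as deposited, was -0.26 in KO cells and -0.08 in WT cells with equal summed FPKM. Of the 4, only ZNF580 and ZNF428 lie on chromosome 19.

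**Figure D2:**
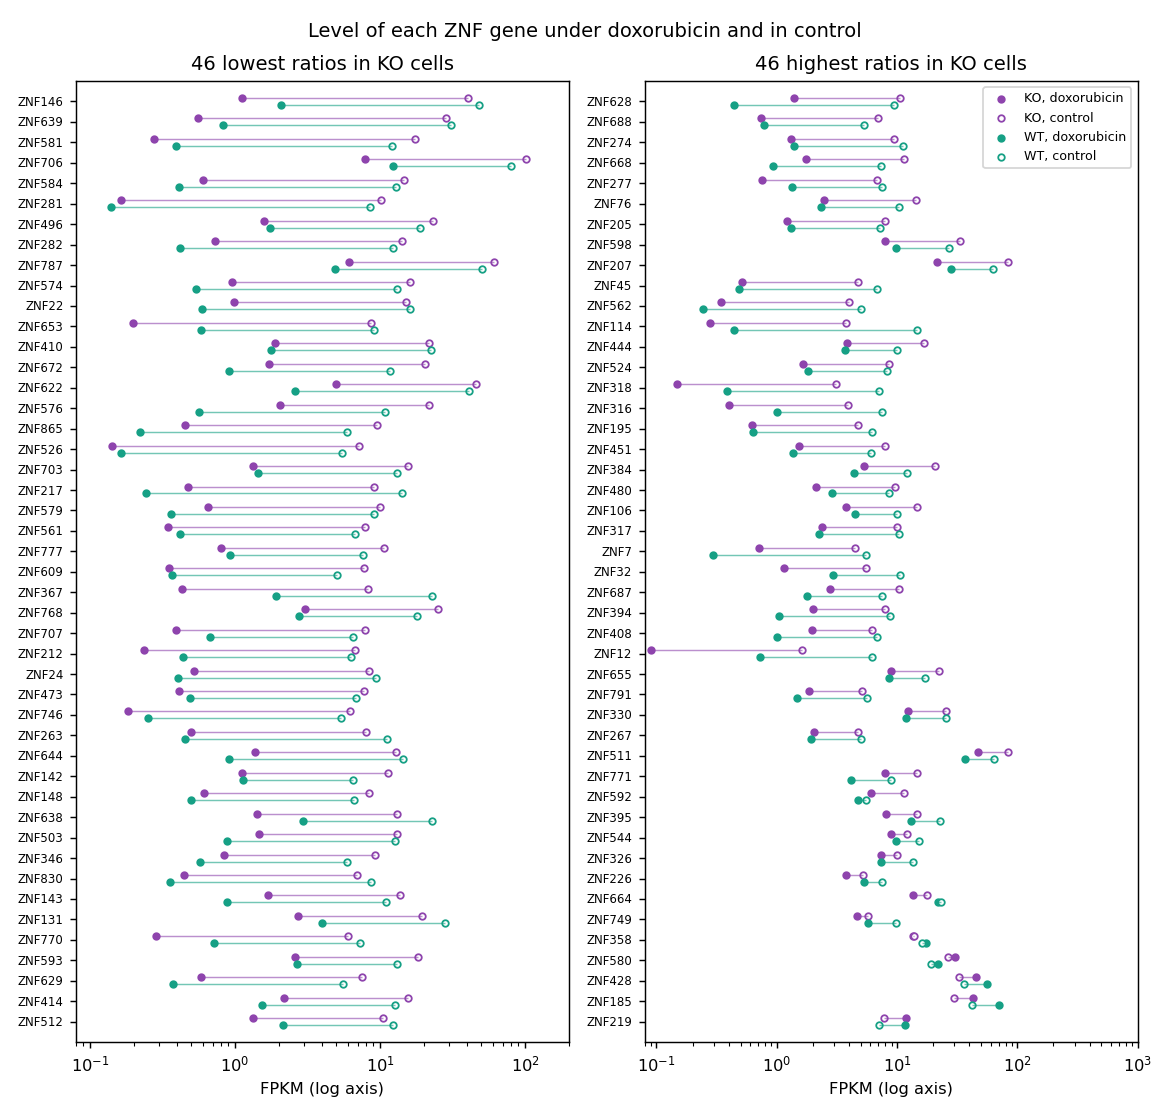
FPKM of each of the 92 ZNF genes on a log axis under doxorubicin (filled) and in control (open), KO cells in purple and WT cells in green, ordered by the ratio in KO cells. Filled points lie left of open points in nearly every row, from ZNF146 at the top left, while ZNF219, ZNF185, ZNF428 and ZNF580 at the bottom right are reversed.

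Genes with known roles covered most of that range. The DNA-binding activator ZNF143, which drives small nuclear RNA genes, had 1.68 FPKM in KO cells under doxorubicin, against 13.7 FPKM in KO control. The breast cancer oncogene ZNF217 had 0.476 FPKM in KO cells under doxorubicin, against 9.12 FPKM in KO control, and 0.245 FPKM in WT cells under doxorubicin, against 14.3 FPKM in WT control. ZNF703, an oncogene amplified in luminal breast cancer, had 1.33 FPKM in KO cells under doxorubicin, against 15.7 FPKM in KO control. All 3 were among the genes at least 4-fold lower. ZNF274, a KRAB protein that brings SETDB1 to the ends of other ZNF genes, had 1.31 FPKM in KO cells under doxorubicin, against 9.49 FPKM in KO control. ZNF622, a factor of large ribosomal subunit assembly, had a ratio of -2.97 in KO cells and -3.53 in WT cells. ZNF598, the ubiquitin ligase that marks collided ribosomes, had -1.95 in KO cells and -1.39 in WT cells. ZNF326, a subunit of the DBIRD complex that couples transcript elongation to splicing, was among the least lowered, at -0.40 in KO cells and -0.82 in WT cells.

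Both genotypes gave nearly the same order of genes. Across the 92 genes the doxorubicin ratios in KO and WT cells had a Spearman rho of 0.871 and a Pearson r of 0.916, as a description over genes of the same libraries. For cisplatin the rho was 0.542 and for tunicamycin 0.494. On the (FPKM + 1) scale the log2 ratio differed between genotypes by 1 or more in 1 gene, beside 4.27% of all genes. That gene was the KRAB gene ZNF114, with 0.280 FPKM in KO cells under doxorubicin, against 3.75 FPKM in KO control, and 0.443 FPKM in WT cells under doxorubicin, against 14.6 FPKM in WT control. The levels under the drug were close and the control levels were far apart. The added 1 shrinks such differences at low levels. Under doxorubicin 37 of the 92 genes in KO cells and 41 in WT cells were below 1 FPKM, beside 10.9% and 9.92% of all genes. With no pseudocount other genes differed by 1 or more too. ZNF217 was at -4.26 in KO cells and -5.86 in WT cells, and ZNF653 at -5.45 in KO cells and -3.95 in WT cells. The count of 1 thus depends on the pseudocount.

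The median doxorubicin ratio of the ZNF genes lay between those of a labile and a ribosomal protein list. The median of all genes did so too, and the part of messenger stability was not tested. Of 28 genes taken as examples of labile messengers, such as MYC, FOS, JUN and MCL1, 21 reached 5 FPKM, with a median doxorubicin ratio of -3.66 in KO cells and -3.94 in WT cells. Ribosomal protein genes, taken as stable, had a median of 0.55 in KO cells and 0.18 in WT cells over 78 genes, the WT value becoming -0.07 with equal summed FPKM. The 20 expressed ZSCAN, ZKSCAN, ZBTB and ZFP genes, which carry the same kind of fingers, had -1.69 in KO cells and -2.02 in WT cells. The 63 other coding genes with 2 or more finger matches had -1.98 in KO cells and -2.13 in WT cells. A low doxorubicin ratio was thus not particular to the ZNF symbol.

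**Figure D3:**
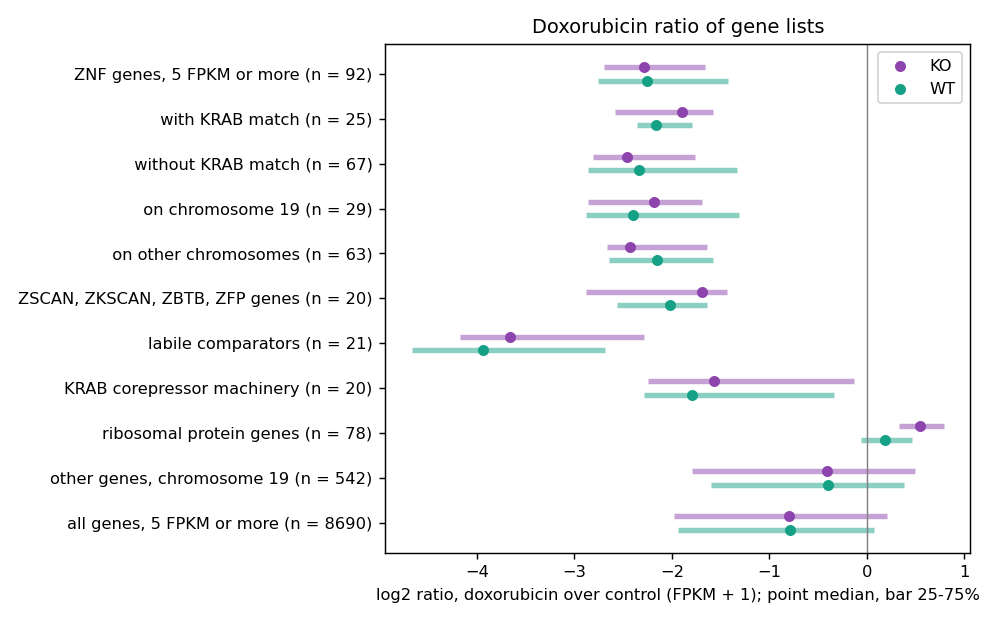
Median (point) and middle 50% (bar) of the log2 ratio of doxorubicin over control for each gene list, KO cells in purple and WT cells in green. The 92 ZNF genes lie near -2.3, between the labile comparators near -3.7 to -3.9 and all genes near -0.8.

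The partners through which KRAB proteins act did not share 1 direction. TRIM28, the corepressor itself, had 408 FPKM in KO cells under doxorubicin, against 377 FPKM in KO control, and 319.7 FPKM in WT cells under doxorubicin, against 311 FPKM in WT control. SETDB1 had 2.44 FPKM in KO cells under doxorubicin, against 8.77 FPKM in KO control, and 1.97 FPKM in WT cells under doxorubicin, against 9.01 FPKM in WT control. Over the 20 corepressor and heterochromatin genes the median ratio was -1.57 in KO cells and -1.80 in WT cells, and 13 in KO cells and 11 in WT cells were at least 2-fold lower. CHD3, of the NuRD remodelling complex, was higher, at 1.22 in KO cells and 1.29 in WT cells, and its ratio stayed positive under each of the 3 scalings, whereas that of TRIM28 was negative with equal summed FPKM. FAM208A, a subunit of the HUSH silencing complex, was at -2.94 in KO cells and -3.08 in WT cells.

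KRAB and other ZNF genes had like ratios once the pseudocount was removed. On the (FPKM + 1) scale the median doxorubicin ratio was -1.89 in KO cells and -2.16 in WT cells for the 25 KRAB genes, against -2.46 in KO cells and -2.33 in WT cells for the other 67. With no pseudocount it was -3.18 in KO cells and -3.06 in WT cells for KRAB genes, against -3.17 in KO cells and -3.05 in WT cells for the others. KRAB genes also had lower levels in WT control, with a median of 7.53 FPKM, against 12.03 FPKM for the others. By number of finger matches, genes with 2 to 5 had the lowest median, at -2.53 in KO cells and -2.54 in WT cells over 29 genes, and genes with 0 or 1 had -1.95 in KO cells and -1.39 in WT cells over 13 genes.

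Other gene features tracked the ratio weakly. Over the 92 genes no Spearman rho between the doxorubicin ratio and coding length, transcript length, exon number, gene span, 3' UTR length, GC content of the coding sequence or finger number exceeded 0.183 in size, and with no pseudocount the farthest from 0 was -0.27, for 3' UTR length in KO cells. The motif ATTTA, found in many unstable messengers, had a median density of 1.29 per kilobase of 3' UTR in the ZNF genes and 1.58 in all coding genes of 5 FPKM or more. Its rho with the ratio was -0.00 in KO cells and -0.08 in WT cells over 89 genes. These features share the annotated transcript and are not independent of each other.

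On chromosome 19 the doxorubicin ratio was low, as it was on other chromosomes. The 29 genes there had a median of -2.18 in KO cells and -2.40 in WT cells, against -2.43 in KO cells and -2.15 in WT cells for the 63 genes on other chromosomes. The difference of medians was 0.25 in KO cells and -0.25 in WT cells, so it had opposite signs in the genotypes. With no pseudocount it was -0.01 in KO cells and -0.83 in WT cells, the WT medians being -3.81 on chromosome 19 and -2.98 elsewhere. At least 2-fold lower were 23 of 29 on chromosome 19, against 54 of 63 elsewhere, in each genotype. The 542 other expressed genes of chromosome 19 had a median of -0.41 in KO cells and -0.39 in WT cells, so the chromosome as a whole was not low. With 12 of the 29 genes matching KRAB, most of the chromosome 19 genes at this level had no KRAB match.

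Neighbouring genes on chromosome 19 could differ widely. Of 9 neighbouring pairs less than 100 kb apart, the median difference in the ratio was 1.26 in KO cells. ZNF576 had 2.03 FPKM in KO cells under doxorubicin, against 21.7 FPKM in KO control. Its neighbour ZNF428, 6.06 kb away in the gene annotation, had the positive ratio given above. The loci behind the deposited FPKM of ZNF576 and ZNF428 overlap, however, so their levels are uncertain. Such loci of 42 ZNF genes overlapped another gene of 1 FPKM or more. The widest difference, 4.03 in KO cells, was between ZNF580 and ZNF581, which overlap on the same strand. ZNF581 had 0.278 FPKM in KO cells under doxorubicin, against 17.5 FPKM in KO control, and 0.390 FPKM in WT cells under doxorubicin, against 12.1 FPKM in WT control. ZNF580 had 30.2 FPKM in KO cells under doxorubicin, against 26.8 FPKM in KO control, and 21.7 FPKM in WT cells under doxorubicin, against 19.3 FPKM in WT control. Fragments from the overlap can be assigned to either gene, so the levels of ZNF580 and ZNF581 are uncertain too.

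**Figure D4:**
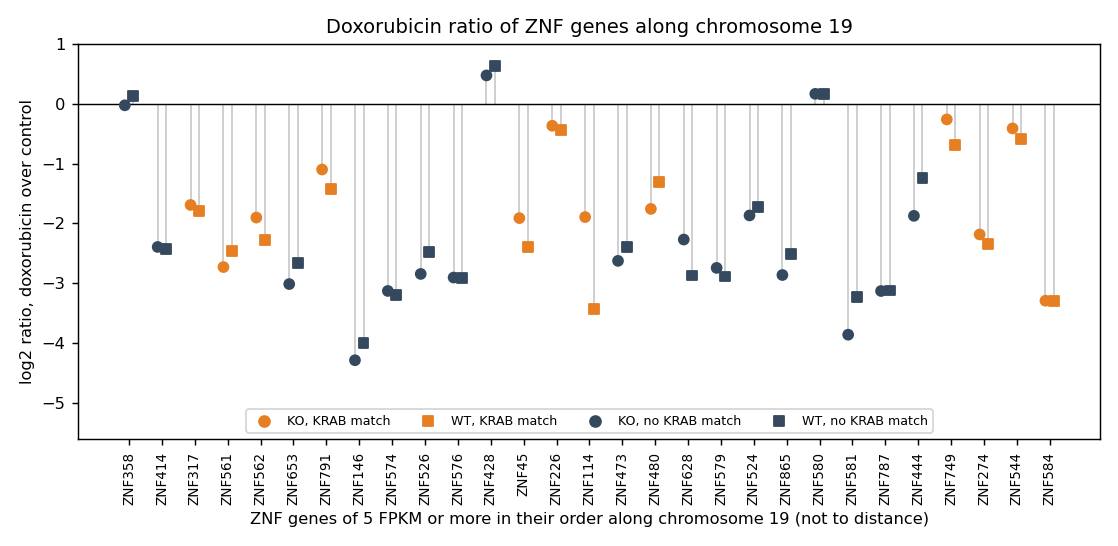
Log2 ratio of doxorubicin over control for the 29 ZNF genes of chromosome 19, in their order along the chromosome, with circles for KO and squares for WT cells and KRAB genes in orange. ZNF146 and ZNF581 are lowest in KO cells, at -4.29 and -3.86, while ZNF428 and ZNF580 stand above 0 beside low neighbours.

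The RefSeq starts of ZNF580 and ZNF581 are shown because these neighbours differed most under the drug. Both stretches are 250 bases upstream of the first listed RefSeq start of the gene on GRCh38.p14, read on the plus strand 5' to 3'. The ZNF581 stretch is chr19:55643399-55643648 and the ZNF580 stretch is chr19:55640752-55641001. Both RefSeq starts lie downstream of the locus starts that give the overlap, chr19:55635016 for ZNF580 and chr19:55635459 for ZNF581. The ZNF580 locus ends at chr19:55643469, inside the ZNF581 stretch. Counted from its RefSeq start, ZNF581 thus begins after that end, so these starts and the overlap come from different annotations. Capitals mark the GC box GGGCGG or its reverse complement CCGCCC, which is bound by SP1.
ZNF581: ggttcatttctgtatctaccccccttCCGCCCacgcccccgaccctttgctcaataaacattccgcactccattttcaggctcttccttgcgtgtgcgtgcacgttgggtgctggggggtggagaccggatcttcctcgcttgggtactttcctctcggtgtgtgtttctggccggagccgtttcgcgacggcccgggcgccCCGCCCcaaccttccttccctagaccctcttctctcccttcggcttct
ZNF580: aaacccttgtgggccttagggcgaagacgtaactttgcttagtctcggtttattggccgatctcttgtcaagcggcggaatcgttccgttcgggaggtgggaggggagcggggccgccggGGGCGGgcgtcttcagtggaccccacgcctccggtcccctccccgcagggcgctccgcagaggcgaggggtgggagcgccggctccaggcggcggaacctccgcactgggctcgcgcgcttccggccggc
The GC box occurs on either strand in 69.6% of the 79 ZNF genes with a RefSeq promoter entry, and in 70.6% of genes of 5 FPKM or more. Of the other motifs searched on both strands, TATAAA was in 0 of the 79 promoters, where 4.47% of genes of 5 FPKM or more had it. TTCCGG was in 38.0% of ZNF promoters and 28.3% of those of genes of 5 FPKM or more. CCAAT was in 34.2% of ZNF promoters and 36.0% of those of genes of 5 FPKM or more. A match is only a run of letters in this window.

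Under cisplatin most of the family was higher than in control. The median log2 ratio of cisplatin over control was 0.50 in KO cells and 0.54 in WT cells, against 0.11 in KO cells and 0.07 in WT cells for all genes. At least 2-fold higher were 9 of 92 genes in KO cells, where 3.45% of all genes were, and 11 of 92 in WT cells, where 3.58% were. At least 2-fold lower was 1 gene in KO cells, where 7.12% of all genes were, and 0 in WT cells, where 4.61% were. The ratio was below 0 in 11 genes in KO cells and 17 in WT cells. ZNF473 had 22.3 FPKM in KO cells under cisplatin, against 7.68 FPKM in KO control, and 20.7 FPKM in WT cells under cisplatin, against 6.85 FPKM in WT control. ZNF584, among the lowest under doxorubicin, had 38.5 FPKM in KO cells under cisplatin, against 14.7 FPKM in KO control, and 35.7 FPKM in WT cells under cisplatin, against 12.9 FPKM in WT control. Both drugs damage DNA, and the level of ZNF584 under them lay on opposite sides of control.

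ZNF609 was the gene at least 2-fold lower in KO cells under cisplatin. It had 1.98 FPKM in KO cells under cisplatin, against 7.77 FPKM in KO control, and 3.80 FPKM in WT cells under cisplatin, against 5.07 FPKM in WT control. The ratio was -1.56 in KO cells and -0.34 in WT cells, where ZNF277, ZNF367 and ZNF226 lay lower, at -0.60, -0.46 and -0.38. Its locus spans 225 kb, the longest of the 92. On chromosome 19 the cisplatin median was 0.51 in KO cells and 0.70 in WT cells, against 0.50 in KO cells and 0.47 in WT cells on other chromosomes. The 542 other expressed genes of chromosome 19 had 0.19 in KO cells and 0.40 in WT cells.

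Under tunicamycin most of the family lay near control. The median ratio was 0.01 in KO cells and 0.09 in WT cells, against -0.09 in KO cells and -0.14 in WT cells for all genes. In each genotype 2 genes were at least 2-fold lower and 1 was at least 2-fold higher. Among all genes 1.93% in KO cells and 2.44% in WT cells were at least 2-fold lower, and 2.39% in KO cells and 2.07% in WT cells at least 2-fold higher. ZNF526, on chromosome 19, was the higher one, with 17.8 FPKM in KO cells under tunicamycin, against 7.19 FPKM in KO control, and 12.5 FPKM in WT cells under tunicamycin, against 5.45 FPKM in WT control. ZNF367 was lower in both genotypes, with 3.58 FPKM in KO cells under tunicamycin, against 8.27 FPKM in KO control, and 8.17 FPKM in WT cells under tunicamycin, against 22.7 FPKM in WT control.

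Between KO and WT cells the ZNF genes were called in both directions. In control 23 of the 92 (25%) were called higher in KO cells, beside 25.5% of tested genes of 5 FPKM or more, and 15 (16.3%) lower, beside 26.2%. The control counts are a description, because that table chose the genes. In cisplatin 28 of 92 (30.4%) were called higher, beside 31.9%, and 18 (19.6%) lower, beside 31%. In doxorubicin 12 of 71 tested (16.9%) were called higher, beside 28.3%, and 13 (18.3%) lower, beside 24.8%, while 21 genes were not tested by the authors. In tunicamycin 17 of 92 (18.5%) were called higher, beside 34.7%, and 20 (21.7%) lower, beside 26.2%. Every share lay near or below that of genes at 5 FPKM or more. Calls in either direction over all tested genes made up 43.8% in the control table, 49.6% with cisplatin, 45.1% with doxorubicin and 49.3% with tunicamycin. The median log2 ratio of KO over WT over the tested ZNF genes was 0.14 in the control table, 0.07 with cisplatin, 0.02 with doxorubicin and -0.03 with tunicamycin.

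Few KRAB genes were called higher in KO cells, while their share of lower calls did not exceed that of genes of 5 FPKM or more in any table. In control 1 of 25 KRAB genes (4%) was called higher and 4 (16%) lower, beside 25.5% and 26.2% of genes of 5 FPKM or more. Of the other 67, 22 (32.8%) were called higher and 11 (16.4%) lower. In cisplatin 3 KRAB genes (12%) were called higher and 4 (16%) lower, beside 31.9% and 31% of genes of 5 FPKM or more. Of the other 67, 25 (37.3%) were called higher and 14 (20.9%) lower. In doxorubicin 0 of 18 tested KRAB genes were called higher and 1 (5.56%) lower, beside 28.3% and 24.8% of genes of 5 FPKM or more. Of 53 tested others, 12 (22.6%) were called higher and 12 (22.6%) lower. In tunicamycin 0 of 25 KRAB genes were called higher and 6 (24%) lower, beside 34.7% and 26.2% of genes of 5 FPKM or more. Of the other 67, 17 (25.4%) were called higher and 14 (20.9%) lower. Of the 6 KRAB genes called lower there, ZNF316 and ZNF12 lie in the shifted stretch of chromosome 7 described with ZNF316. The difference between KRAB and other genes was not tested, nor was the part of the lower levels of KRAB genes in these counts.

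Called lower in KO cells in all 4 tables were 6 genes, ZNF316, ZNF367, ZNF395, ZNF185, ZNF32 and ZNF664, of 71 tested in all 4. Among all genes tested in all 4, 8.66% were called lower in each and 9% higher in each, while 0 ZNF genes were called higher in each. A further 27 ZNF genes were called in no table. Called higher in at least 1 table and lower in at least 1 other were 10 of the 92 (10.9%), beside 15.8% of genes of 5 FPKM or more tested in at least 2 tables.

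ZNF367, a factor on chromosome 9, had 8.27 FPKM in KO cells and 22.7 FPKM in WT cells in control. Under cisplatin it had 8.65 FPKM in KO cells and 16.2 FPKM in WT cells, and under doxorubicin 0.430 FPKM in KO cells and 1.90 FPKM in WT cells. The KO level was the lower in every pair, and the log2 ratio in the authors' deposited table was -2.15 in doxorubicin (q = 0.000186) and -1.19 in tunicamycin (q = 0.000173). ZNF316, a KRAB gene on chromosome 7, had 4.85 FPKM in KO cells and 15.0 FPKM in WT cells under cisplatin. Under tunicamycin it had 3.95 FPKM in KO cells and 11.96 FPKM in WT cells, a log2 ratio of -1.60 in the authors' deposited table (q = 0.000173). ZNF185 had 42.5 FPKM in KO cells and 70.7 FPKM in WT cells under doxorubicin, and 20.6 FPKM in KO cells and 33.0 FPKM in WT cells under cisplatin. ZNF395, a DNA-binding protein induced by hypoxia, had 9.40 FPKM in KO cells and 18.5 FPKM in WT cells under tunicamycin. ZNF32 had 1.15 FPKM in KO cells and 2.93 FPKM in WT cells under doxorubicin, and ZNF664 had 13.7 FPKM in KO cells and 22.1 FPKM in WT cells under the same drug.

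Some of these genes lie where whole stretches of chromosome differed between the genotypes. Of 282 windows of 10 Mb, 28 had a median KO over WT log2 ratio beyond 0.3 in the same direction in all 4 tables, and 5 of the 92 genes lay in such windows. ZNF316 and its neighbour ZNF12 shared a window of chromosome 7 whose median was -1.22 in control. Under the drugs it ran from -1.04 in doxorubicin to -1.28 in tunicamycin. The ratio of ZNF316 was -0.93 in control and -1.63 in cisplatin, in the same direction as its window. The window of ZNF395 had a median of -0.31 in control, where the gene was at -0.64, and the window of ZNF367 had -0.40, where the gene was at -1.45. The part of these stretches in the calls of the genes was not tested.

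**Figure D5:**
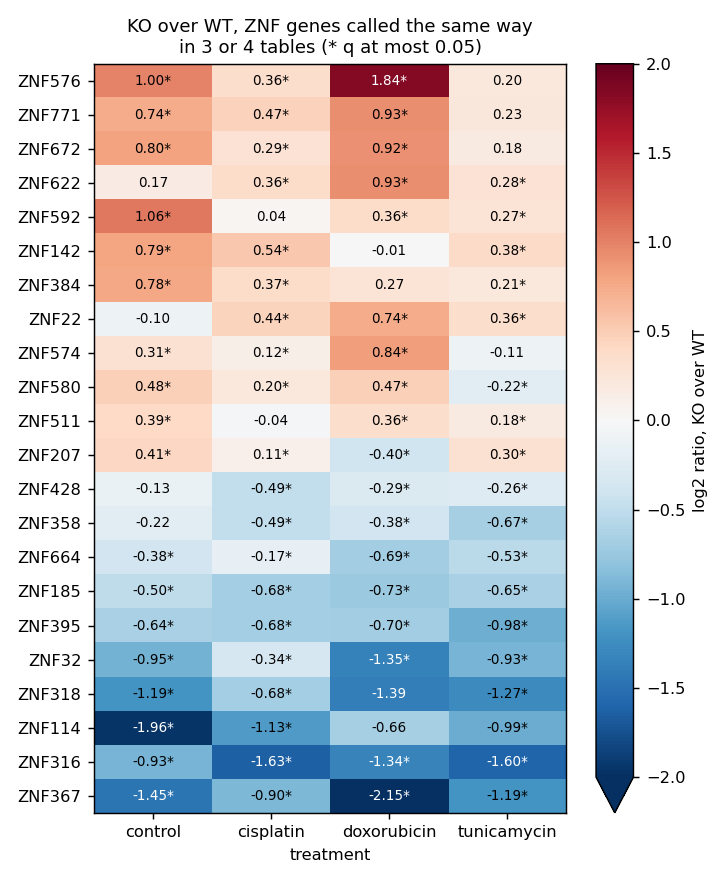
Log2 ratio of KO over WT cells in the authors' deposited tables for the ZNF genes called in the same direction in at least 3 tables, with an asterisk where q was at most 0.05. The 10 genes at the bottom, down to ZNF367, were called lower in 3 or 4 tables, and the 12 at the top were called higher in 3.

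Higher calls recurred in fewer tables. ZNF576, on chromosome 19, had 2.03 FPKM in KO cells and 0.568 FPKM in WT cells under doxorubicin, a log2 ratio of 1.84 in the authors' deposited table (q = 0.00779). In control it had 21.7 FPKM in KO cells and 10.8 FPKM in WT cells. ZNF628, its ratio the next largest in doxorubicin, had 1.39 FPKM in KO cells and 0.439 FPKM in WT cells. Both were low under doxorubicin in either genotype, so these ratios compare small levels. Under cisplatin the largest called ratio was that of ZNF281, with 14.1 FPKM in KO cells and 8.82 FPKM in WT cells (log2 ratio 0.68, q = 0.000167 in the authors' deposited table). ZNF346, which binds double-stranded RNA, had 15.9 FPKM in KO cells and 10.6 FPKM in WT cells under cisplatin. Under tunicamycin the SUMO ligase gene ZNF451 had 8.40 FPKM in KO cells and 4.46 FPKM in WT cells.

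The E-box CACGTG, the sequence bound by BMAL1 with CLOCK, was in 2 of the 79 ZNF promoters (2.53%), against 9.60% of genes of 5 FPKM or more and 6.49% of all promoters. The 2 are shown because they are the only ones with the motif, which is in capitals. They are again 250 bases upstream of the first listed RefSeq start on GRCh38.p14. ZNF512 is chr2:27582792-27583041 on the plus strand, with the motif at -94, and ZNF318 is chr6:43369648-43369897 on the minus strand, with the motif at -150.
ZNF512: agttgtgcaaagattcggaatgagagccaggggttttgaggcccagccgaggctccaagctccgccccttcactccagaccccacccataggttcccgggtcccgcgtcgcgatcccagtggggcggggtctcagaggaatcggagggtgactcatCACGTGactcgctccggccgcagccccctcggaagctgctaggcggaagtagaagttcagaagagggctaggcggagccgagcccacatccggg
ZNF318: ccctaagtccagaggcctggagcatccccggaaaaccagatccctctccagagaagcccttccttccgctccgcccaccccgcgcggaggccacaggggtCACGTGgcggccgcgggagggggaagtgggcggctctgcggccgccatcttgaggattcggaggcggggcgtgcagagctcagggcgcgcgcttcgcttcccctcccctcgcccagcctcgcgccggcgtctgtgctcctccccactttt
ZNF318, needed for IgD expression in mouse B cells, had 3.11 FPKM in KO cells and 7.10 FPKM in WT cells in control, and 2.66 FPKM in KO cells and 6.42 FPKM in WT cells under tunicamycin. Under cisplatin it had 6.94 FPKM in KO cells and 11.1 FPKM in WT cells, and it was called lower in these 3 tables and not tested in doxorubicin. ZNF512 had 10.5 FPKM in KO cells and 12.2 FPKM in WT cells in control and was called in no table. A match in this window is a description and says nothing of binding in these cells.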

How the data were processed

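The 16 samples were placed in 8 groups by the genotype and treatment given in the labels. The submitters' processing notes list STAR 2.5.3, Trimmomatic 0.35, FastQC 0.11.5, Cuffdiff, Cufflinks and hg38, with no roles. Whether strand was used in counting is not stated, so overlapping and antisense genes are uncertain, as are close paralogs. Per the file headers, each of the 4 deposited tables gives the authors' FPKM, 1 value per group, over 60658 genes. Deposited log2 values of the authors are KO over WT FPKM with no pseudocount, the score deposited by the authors is Cuffdiff's test statistic, and the p-values and q-values deposited by the authors come from its test of KO against WT within a table. Recomputed Benjamini-Hochberg values matched the deposited q to within 5.25e-07. No value per library or count was used, so depth is unknown. As a rough guide, the 5th percentile of FPKM above 0 in WT control was 1.35 to 2.74 times that of the other groups. P-values measure only the spread that Cuffdiff estimated.

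Drug ratios were log2 of (FPKM + 1) ratios across tables, with no test. Genes named follow fixed rules: the 5 highest in WT control, genes called one way in all tables, the 3 largest and smallest called ratios in each drug table, the 6 lowest and 4 highest doxorubicin ratios in KO cells, 3 genes on either side of the threshold, a list of known roles and genes in shifted windows. ZNF473, ZNF526, ZNF609, ZNF114, ZNF576, ZNF428, ZNF277 and ZNF226 were also described as extremes after their values were seen, and ZNF512 and ZNF318 for their promoter motif. ZNF653 was picked as an example after its values were seen. ZNF503 was named for its 0 finger matches, and ZNF770 and ZNF777 for their opposite calls. The genes and all lists were chosen with earlier results of these data known. KRAB matches needed 9 of 15 residues of the A box within the first 400 residues of a translated GENCODE 29 transcript, and finger matches the spacing C-x2/4-C-x12-H-x3/4/5-H. Promoters came from RefSeq (GRCh38.p14), where 79 of 92 genes matched by symbol. Only the first listed entry of a symbol was used, so alternative starts were not searched. Python 3.11.15, pandas 2.3.3, NumPy 2.4.6 and SciPy 1.17.1 were used. The code for median ratios without a pseudocount and for shifted windows was tested on simulated data, while that for calls was not. Alternatives were another threshold on q, other minimum levels or choosing groups, other pseudocounts and scalings, and leaving out genes in shifted windows or overlapping loci.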

Additional observations from a re-analysis of the deposited data

Results flagged for a closer look

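Opposite calls under different treatments were found in 10 of the 92 ZNF genes (10.9%), which were called higher in KO cells in at least 1 table and lower in at least 1 other. Among genes of 5 FPKM or more tested in at least 2 tables the share was 15.8%, so opposite calls were no more frequent in the ZNF genes by count. The difference between tables was not tested for any of them, since they hold no value per library. All ratios here are KO over WT log2 ratios from the authors' deposited tables.

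In 3 genes the call in doxorubicin was opposite to all other calls. ZNF706 was at -0.65 in doxorubicin, 0.34 in control and 0.33 in tunicamycin, and was not called in cisplatin at -0.00. ZNF207 was at -0.40 in doxorubicin, 0.41 in control, 0.11 in cisplatin and 0.30 in tunicamycin. ZNF408 was at 0.97 in doxorubicin, -0.19 in cisplatin and -0.43 in tunicamycin, inside a window of chromosome 11 that was shifted downward, and was not called in control at -0.12.

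The call in cisplatin was opposite to all other calls in 4 more genes, and also in ZNF581, given below. ZNF609, ZNF326 and ZNF581 had only 1 call in each direction, so neither call can be named the odd one. ZNF787 was at -0.35 in cisplatin, 0.29 in control and 0.15 in tunicamycin, and was not called in doxorubicin at 0.32. ZNF609 was at -0.94 in cisplatin and 0.62 in control, and was not called at -0.07 in both doxorubicin and tunicamycin. ZNF326 was at 0.47 in cisplatin and -0.44 in control, and was not called in doxorubicin at 0.02 or in tunicamycin at -0.08. ZNF770 was at 0.32 in cisplatin but -1.32 in doxorubicin and -0.15 with tunicamycin, and was not called in control at -0.26.

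The other 3 genes were called lower in tunicamycin only. ZNF580 was at -0.22 in tunicamycin, 0.48 in control, 0.20 in cisplatin and 0.47 in doxorubicin. Its overlapping neighbour ZNF581 was at -0.23 in tunicamycin and 0.23 in cisplatin, with 0.54 in control and -0.49 in doxorubicin not called. ZNF777 was at -0.13 in tunicamycin, 0.50 in control and 0.17 in cisplatin, with -0.20 in doxorubicin not called. In ZNF581 and ZNF777 the uncalled doxorubicin ratio was thus lower than the one in tunicamycin.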

How the results depend on the processing

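Across 18 results and 166 alternative values, 154 stayed within 1.5 times the reported share or, for ratios, within a 1.5-fold shift of the reported log2 value, and 12 moved further. Only the doxorubicin medians were larger than a 1.5-fold change as reported, and they kept their sign in every setting. Smaller ratios could change sign and still count as staying. The tunicamycin median in KO cells, reported as 0.012, was -0.012 with equal summed FPKM and -0.111 with a minimum of 10 FPKM. It was also -0.024 with genes chosen on KO control and -0.021 without genes in overlapping loci. In the remaining settings it was above 0, such as 0.060 with groups scaled to the same median. With a minimum of 2 FPKM, which takes 210 genes, the share called higher in KO cells was 15.24% in control and 9.048% in tunicamycin, the share called lower in cisplatin was 12.38%, and the doxorubicin median in KO cells was -1.619. With q at most 0.01 the share called higher in doxorubicin was 7.042% and the share called lower in tunicamycin 14.13%. The doxorubicin median in KO cells was -3.019 with a pseudocount of 0.1, -3.178 with none and -1.573 with groups scaled to the same median. In WT cells it was -2.939, -3.054 and -1.65 under the same 3 settings. The difference between chromosome 19 and other chromosomes ran from -0.01 with no pseudocount to 0.49 with a minimum of 2 FPKM in KO cells. In WT cells it ran from -0.83 with no pseudocount and -0.65 with a pseudocount of 0.1 to 0.12 and 0.21 with a minimum of 10 and 2 FPKM, so its size and sign depend on these choices. No paired analysis was possible because the tables hold 1 value per group, and for the same reason no replicate could be left out. Depth is unknown, so the precision of low levels cannot be given. Under doxorubicin 37 genes in KO cells and 41 in WT cells were below 1 FPKM.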
